A study of Mus musculus with 16 samples.

Results

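The genes described here make cholesterol or set how much of it is made. There are 20 enzymes of the route from acetyl-CoA to cholesterol and its isoprenoid side products, and 4 genes of the SREBP2 control system. The pair Stard4 and Mylip act on sterol transfer and on lipoprotein receptors. Not every step of the route is covered by the 20 enzymes, and the reduction to mevalonate is not. All these genes were taken by symbol from a chosen list of 26 genes. Each was present once among the 20581 genes of the deposited table, and all 26 passed the filter on low counts that left 14217 genes for testing. No measured value enters the rule, but the list was chosen with earlier results of these data known.

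Cells make cholesterol in a long chain of steps. Acetyl-CoA units are joined and reduced to mevalonate, mevalonate is turned into isoprenoid units, these are joined to squalene, and squalene is closed into the first sterol, lanosterol, which further enzymes trim to cholesterol. The transcription factor SREBP2, encoded by Srebf2, turns these genes on together: when membrane sterol is low, the escort protein SCAP carries SREBP2 out of the endoplasmic reticulum to be cut and released, and when sterol is high, the INSIG proteins hold SCAP back. In smooth muscle cells of the vessel wall the balance between making, taking up and exporting cholesterol bears on whether the cells store lipid and take on the look of foam cells.

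The RNA came from primary smooth muscle cells grown from the aortas of C57BL/6J mice, all labelled male and all given the same batch number. KO mice carried loxP-flanked Arg1 (ARG1 flox/flox) and a Cre recombinase transgene under the erythropoietin receptor gene (ErCre tg), so that the deletion of Arg1 was meant for the red blood cell lineage and not for the smooth muscle cells studied; WT mice were their littermates, and the labels do not say which of these alleles they carried or how old the mice were. Cells of each genotype either stayed in DMEM with 10% fetal bovine serum or spent 10 days in DIAM, a lipid-loading medium of DMEM plus 0.1 µM dexamethasone, 1 µM insulin and 50 µg/mL ascorbic acid; the sources used here do not say whether serum was part of DIAM. With 4 libraries in each of 4 groups there were 16 libraries, of 37221313 to 47626242 counts each. The labels do not tie a library to a mouse, so the p-values measure the spread between these samples, which may in part be technical.

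Arg1 itself had 3 to 4 counts per library in WT cells in DMEM, 2 to 49 in KO cells in DMEM, 0 to 9 in WT cells in DIAM and 1 to 4 in KO cells in DIAM, which checks no label since the deletion lies in another lineage. Levels in CPM are counts scaled to the library total, with that total adjusted by the trimmed-mean method. All 10 smooth muscle markers were present, and their summed level was 4478 to 6802 CPM in the DMEM libraries and 2193 to 3565 in the DIAM libraries. Cald1, Acta2 and Tagln gave the most to that sum. Myh11 had 108 ± 13.8 CPM in DMEM and 101 ± 35.9 in DIAM in WT cells. In KO cells Myh11 had 102 ± 27.9 and 158 ± 44.2 CPM. With DIAM 6 of the 10 were lower in each genotype, beside 27.5% of all tested genes in WT and 30.8% in KO cells. Myocd was higher in both, from 3.92 ± 1.34 to 10.04 ± 1.91 CPM in WT cells, and Lmod1 was higher in KO cells; of all tested genes 27.6% were higher in WT and 29.8% in KO cells. The 7 adipocyte markers in the table, of 8 listed, summed to 57.6 to 102 CPM in DMEM and 1639 to 3623 in DIAM, and all 7, Adipoq among them, rose in each genotype. The 8 fibroblast markers summed to 8064 to 12070.0 CPM in DMEM and 3865 to 8773 in DIAM. Col1a1 gave the most to that sum (9272 ± 704 and 4466 ± 1070.0 CPM in WT cells, 8982 ± 1610.0 and 2309 ± 696 in KO cells). Of the 8, 5 (Dcn, Pdgfra, Pi16, Dpt and Ly6a) were higher in DIAM in each genotype and 3 (Col1a1, Lum and Fbln1) lower. Their median log2 fold change was 0.67 in WT and 0.91 in KO cells. The 8 endothelial markers summed to 41.3 to 65.8 CPM in DMEM and 79.5 to 126 in DIAM, the 6 leukocyte markers in the table to 787 to 2247 and 804 to 1399, the 7 mesothelial markers to 63.8 to 343 and 122 to 682, and the 2 erythroid markers in the table to 0.0463 to 0.314 and 0.663 to 8.08. Of these lists the endothelial had 3 higher and 0 lower in DIAM in WT cells and 4 and 1 in KO cells, the leukocyte 1 and 0 in WT and 0 and 3 in KO cells, and the mesothelial 2 and 0 in each. The 7 Schwann cell markers summed to 17.8 to 48.1 CPM in DMEM and 142 to 341 in DIAM in the WT libraries, and to 14.6 to 60.2 and 18.8 to 84.2 in the KO libraries. Of the 6 tested, 5 were higher and 1 lower in DIAM in WT cells, and 2 higher and 1 lower in KO cells. The part of these shifts in the results that follow was not tested, and in bulk RNA fewer cells of a type cannot be told apart from less RNA per cell.

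The DNA before the start of these genes is shown for 5 members on which the comparison of media turns, in RefSeq promoter windows of 300 bases (250 before the annotated start and 50 after it) on mouse build GRCm38.p6, which differs from the build of the counts and is used for sequence alone. Sterol response elements, the sites that SREBP2 is known to bind, were searched as the 8 letters CACNCCAC on both strands, together with the CCAAT box, bound by the factor NF-Y that is known to act beside SREBP2. Capitals mark matches to either motif on either strand, which may overlap. Hmgcs1 and Insig1 are textbook SREBP2 targets, Insig2 is the second INSIG gene, and Tm7sf2 and Lbr encode the sterol reductases that share a step.
Hmgcs1, chr13:119690101-119690400, plus strand: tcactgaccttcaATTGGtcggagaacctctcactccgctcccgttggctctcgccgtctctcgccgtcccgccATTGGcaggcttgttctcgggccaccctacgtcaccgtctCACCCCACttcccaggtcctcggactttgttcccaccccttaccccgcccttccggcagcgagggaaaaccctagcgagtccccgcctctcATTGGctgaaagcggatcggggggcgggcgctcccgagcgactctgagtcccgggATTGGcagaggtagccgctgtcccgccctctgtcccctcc
Insig1, chr5:28071162-28071461, plus strand: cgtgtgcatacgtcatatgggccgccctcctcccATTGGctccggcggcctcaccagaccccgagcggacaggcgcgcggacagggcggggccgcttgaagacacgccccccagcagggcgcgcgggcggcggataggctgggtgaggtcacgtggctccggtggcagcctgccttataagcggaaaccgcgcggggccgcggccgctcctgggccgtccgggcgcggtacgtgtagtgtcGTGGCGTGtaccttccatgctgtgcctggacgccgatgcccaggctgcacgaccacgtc
Insig2, chr1:121332540-121332839, minus strand: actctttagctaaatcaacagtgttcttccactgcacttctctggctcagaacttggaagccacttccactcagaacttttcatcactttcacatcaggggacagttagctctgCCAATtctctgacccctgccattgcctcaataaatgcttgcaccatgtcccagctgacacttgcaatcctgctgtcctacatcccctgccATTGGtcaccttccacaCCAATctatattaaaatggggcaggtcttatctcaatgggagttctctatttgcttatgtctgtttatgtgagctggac
Tm7sf2, chr19:6067801-6068100, minus strand: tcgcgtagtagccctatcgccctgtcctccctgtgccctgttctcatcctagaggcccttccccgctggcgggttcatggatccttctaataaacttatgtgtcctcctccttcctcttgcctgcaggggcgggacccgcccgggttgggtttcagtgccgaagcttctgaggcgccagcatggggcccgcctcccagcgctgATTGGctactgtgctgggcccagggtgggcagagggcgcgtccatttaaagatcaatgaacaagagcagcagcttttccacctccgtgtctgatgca
Lbr, chr1:181842352-181842651, minus strand: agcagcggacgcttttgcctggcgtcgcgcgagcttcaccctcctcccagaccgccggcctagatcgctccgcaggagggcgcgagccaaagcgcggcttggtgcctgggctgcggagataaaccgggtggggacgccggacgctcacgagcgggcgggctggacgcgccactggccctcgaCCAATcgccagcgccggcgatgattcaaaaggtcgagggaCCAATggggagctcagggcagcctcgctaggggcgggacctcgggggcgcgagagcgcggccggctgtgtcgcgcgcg

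RefSeq windows were matched for 22 of the 26 members, with 28 annotated starts; Fdps, Fdft1, Sqle and Stard4 had no entry. The 8-letter sterol element was found in 3 of the 22 (13.6%), Acat2, Hmgcs1 and Insig1, against 7.56% of the 10426 tested genes with a window. By window it was found in 10.7% of the 28 member windows, against 6.24% of all 32851 windows. A 9-letter form, TCACNCCAC, of which the 8-letter form is part, was found in 1 member, Hmgcs1 (4.55%, against 1.40% of tested genes). By window the share for this form was 3.57% of member windows, against 1.24% of all windows. CCAAT on either strand was found in 20 of the 22 members (90.9%), against 43.1% of tested genes. It was in 71.4% of member windows, against 37.4% of all windows, and was not among the letters of the Acat2 and Scap windows. The GC box GGGCGG, a site for SP factors, was found in 20 of 22 (90.9%), all but Pmvk and Ggps1, against 68.9% of tested genes. By window the GC box was in 82.1% of member windows, against 35.7% of all windows. Insig2 has 3 annotated starts, and only the first of them, printed here, holds CCAAT. These matches describe letters in a window and are no evidence of binding. A window without a match may still hold a site, since only these letters were searched and variant forms were not.

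Transcripts of most of the 26 genes were lower in DIAM in both genotypes, from the first enzymes to Srebf2. Of the 26 genes, 22 were lower in DIAM than in DMEM in WT cells and 0 were higher, at a Benjamini-Hochberg adjusted p under 0.05 over all genes in the quasi-likelihood test of edgeR, where 55.1% of all tested genes were called, 27.5% lower and 27.6% higher. In KO cells 21 were lower and 2 higher, where 30.8% and 29.8% of all tested genes were called, 60.7% in all. The median log2 fold change of the 26 was -0.92 in WT cells and -0.81 in KO cells, beside -0.01 and -0.02 for all tested genes. In 20 members the 4 WT libraries in DIAM all lay under the 4 in DMEM, and in 21 the same held for KO cells, against 24.7% and 27.8% of all tested genes. Whether the fall belongs to dexamethasone, insulin, ascorbate, the length of culture or any change in serum cannot be told apart, because the media differ in all of these or in parts not given.

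**Figure D1:**
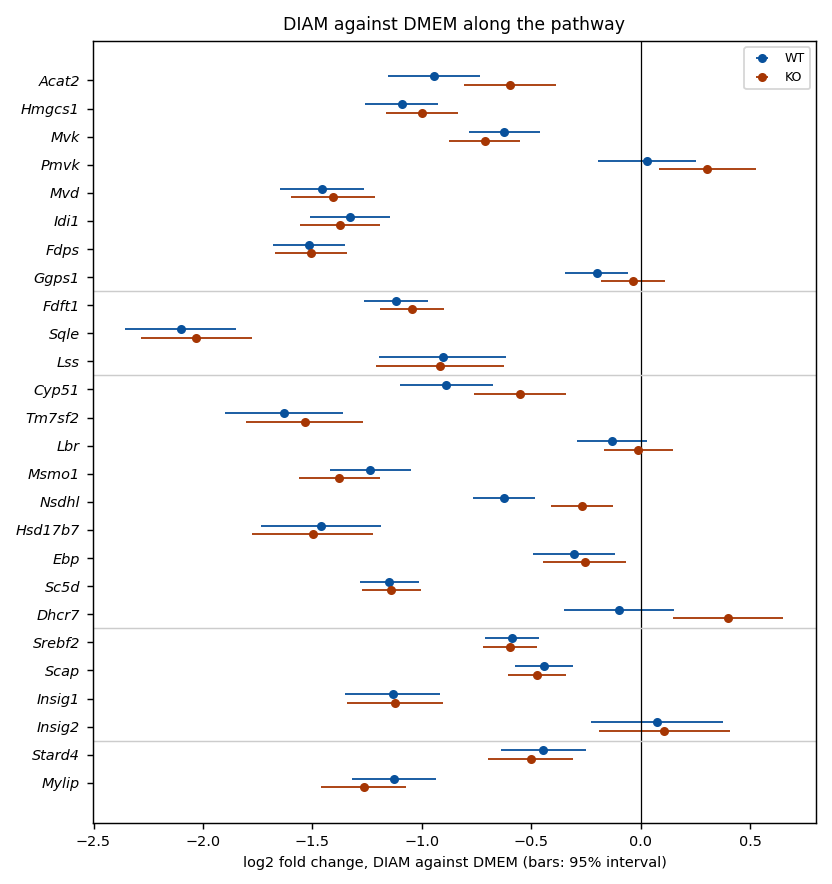
Log2 fold change from DMEM to DIAM for the 26 genes in pathway order, in WT and KO cells, with bars for the approximate 95% interval and lines between the roles. The points lie left of 0 for 24 genes in WT cells and 23 in KO cells (50.6% and 51.9% of all tested genes). They run from -2.10 for Sqle in WT cells to 0.40 for Dhcr7 in KO cells. After quantile normalization, which is not drawn, 26 and 24 of the 26 were below 0, against 58% and 56.7% of all tested genes.

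Of the 8 mevalonate and isoprenoid enzymes, 7 were lower in DIAM in WT cells and 6 in KO cells. Hmgcs1, the synthase that joins acetoacetyl-CoA and acetyl-CoA to HMG-CoA, had 207, 245, 244 and 221 CPM in DMEM and 111, 106, 106 and 107 in DIAM in WT libraries 1 to 4. KO cells gave 194, 181, 239.9 and 219 CPM in DMEM and 103, 103, 101 and 109.9 in DIAM. Levels are CPM scaled by the trimmed-mean (TMM) method and serve to compare libraries for 1 gene, not genes with each other. No DIAM library reached the lowest DMEM library in either genotype, and Hmgcs1 fell 2.13-fold in WT cells (log2 fold change -1.09 ± 0.08 (SE, n = 4 against 4), edgeR adjusted p = 5.75e-09) and 1.998-fold in KO cells (adjusted p = 1.33e-08).

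Fdps, which makes farnesyl diphosphate and stands where isoprenoids branch towards sterols, had 169, 204, 197 and 183 CPM in DMEM and 67.2, 68.6, 63.96 and 63.4 in DIAM in the WT libraries. Its KO values were 166, 148, 196 and 178 CPM in DMEM and 62.7, 61.2, 58.9 and 59.6 in DIAM. The media did not overlap in either genotype, and the fall was 2.86-fold in WT cells (edgeR adjusted p = 1.34e-10) and 2.84-fold in KO cells (adjusted p = 1.10e-10). Mvd, the decarboxylase that yields isopentenyl diphosphate, fell from 44.4 ± 4.02 to 16.2 ± 1.42 CPM in WT cells and from 40.96 ± 3.76 to 15.5 ± 1.35 in KO cells (mean ± SD, n = 4 in each group). Idi1, the isomerase of isopentenyl diphosphate, fell from 158 ± 9.28 to 62.7 ± 3.47 CPM in WT cells and from 145 ± 21.3 to 56.02 ± 1.56 in KO cells. Log2 fold changes of these were -1.46 and -1.41 for Mvd and -1.33 and -1.37 for Idi1, in WT and KO cells in turn.

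Acat2, a cytosolic thiolase that makes acetoacetyl-CoA, had log2 fold changes of -0.95 and -0.60, and Mvk, the kinase of mevalonate, -0.62 and -0.71. Acat2 fell from 82.9 ± 8.29 to 43.1 ± 2.93 CPM in WT cells and from 76.5 ± 9.62 to 50.5 ± 4.92 in KO cells. Mvk fell from 40.7 ± 1.57 to 26.5 ± 0.920 CPM in WT cells and from 38.7 ± 4.69 to 23.6 ± 1.42 in KO cells. Acat2 overlaps an annotated gene and has a near copy, Acat3, between which reads may be split; Acat3 fell as well, from 3.35 ± 1.01 to 1.75 ± 0.411 CPM in WT cells (log2 fold change -0.94, edgeR adjusted p = 0.00229).

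In the rest of this stretch Pmvk was called in KO cells and Ggps1 in WT cells, and both calls were lost without single libraries. Pmvk, the kinase after Mvk, had 18.1, 23.02, 21.9 and 23.2 CPM in DMEM and 21.8, 20.6, 21.8 and 23.8 in DIAM in the WT libraries. Those ranges overlapped, with a log2 fold change of 0.03 (95% interval -0.19 to 0.25). In the KO libraries Pmvk had 21.6, 17.04, 21.8 and 21.9 CPM in DMEM and 27.8, 25.5, 21.2 and 27.2 in DIAM, the DMEM library 2 being low, and it was called higher in DIAM at 0.30 (edgeR adjusted p = 0.0174). That call was lost without KO DMEM library 2 (0.22, adjusted p = 0.0617), without KO DIAM library 1 (adjusted p = 0.0559) and without KO DIAM library 4 (adjusted p = 0.0504). Ggps1, which makes geranylgeranyl diphosphate for protein prenylation and so draws isoprenoid away from sterols, had 64.5, 55.7, 61.2 and 63.9 CPM in DMEM and 57.6, 48.9, 51.6 and 55.2 in DIAM in the WT libraries. It was called lower in WT cells at a log2 fold change of -0.20 ± 0.07 (edgeR adjusted p = 0.0176), a call lost without WT DMEM library 1 (adjusted p = 0.0578) or WT DIAM library 2 (adjusted p = 0.0620). In KO cells its log2 fold change was -0.04 (95% interval -0.18 to 0.11), from 55.7 ± 4.78 to 54.3 ± 1.63 CPM.

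All 3 enzymes that build squalene and lanosterol fell in both genotypes. Sqle, squalene epoxidase, which commits squalene to sterols and is one of the slow steps of the pathway, had 208, 265, 246 and 245 CPM in DMEM and 55.7, 56.8, 57.8 and 54.5 in DIAM in the WT libraries. Values in KO cells were 227, 173, 282 and 199 CPM in DMEM and 57.9, 52.4, 54.6 and 50.8 in DIAM. Each DIAM library lay far under each DMEM library, and the fall, 4.29-fold in WT cells (log2 fold change -2.10 ± 0.12, edgeR adjusted p = 4.35e-10) and 4.09-fold in KO cells (adjusted p = 5.22e-10), gave the lowest log2 fold change of the 26 genes in each genotype. Fdft1, squalene synthase, fell from 114 ± 6.07 to 52.6 ± 2.16 CPM in WT cells and from 112 ± 9.35 to 54.2 ± 4.22 in KO cells. Lss, which closes epoxidised squalene into lanosterol, fell from 96.2 ± 18.5 to 51.4 ± 4.09 CPM in WT cells and from 89.3 ± 7.13 to 47.3 ± 7.73 in KO cells. Fdft1 and Lss both overlap another annotated gene, as do Acat2, Mvd, Fdps, Tm7sf2, Srebf2 and Insig1, 8 members in all. Overlap was judged from whole gene spans, and whether exons are shared was not checked. The kit did not mark strand, so reads from any shared exon cannot be assigned to 1 of the 2 genes by strand.

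Of the 9 enzymes after lanosterol, 7 were lower in DIAM in WT cells, and in KO cells 7 were lower and 1 higher. Tm7sf2 and Lbr encode 2 reductases that remove the same double bond of the sterol ring, and Lbr is also a protein of the inner nuclear membrane. Tm7sf2 had 23.2, 28.6, 27.3 and 25.1 CPM in DMEM and 8.92, 8.79, 7.47 and 8.47 in DIAM in the WT libraries. The KO libraries had 23.4, 22.1, 23.3 and 27.4 CPM in DMEM and 10.1, 7.29, 6.49 and 9.302 in DIAM. The fall was 3.095-fold in WT cells (edgeR adjusted p = 1.45e-08) and 2.9-fold in KO cells (adjusted p = 2.32e-08), with no overlap between media. Lbr had 22.8, 25.1, 22.8 and 21.7 CPM in DMEM and 21.9, 21.6, 20.1 and 20.7 in DIAM in the WT libraries. KO cells gave 21.9, 20.6, 23.9 and 23.99 CPM in DMEM and 23.5, 21.04, 24.9 and 20.3 in DIAM. Media overlapped for Lbr in both genotypes, and its log2 fold changes of -0.13 (95% interval -0.29 to 0.03) and -0.01 (95% interval -0.17 to 0.15) did not pass the test; limma on quantile-normalized values did call it lower in WT cells (-0.21, adjusted p = 0.0277).

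Msmo1, a C4-methyl sterol oxidase, had 192, 207, 182 and 172 CPM in DMEM and 80.4, 90.3, 74.4 and 74.5 in DIAM in the WT libraries. Its KO values were 175, 147, 195 and 183 CPM in DMEM and 70.4, 68.8, 65.8 and 64.5 in DIAM. It fell 2.35-fold in WT cells and 2.598-fold in KO cells (edgeR adjusted p = 4.53e-09 and 1.12e-09). Hsd17b7, the ketoreductase that works with it in removing the methyl groups, fell from 89.3 ± 11.6 to 32.4 ± 3.34 CPM in WT cells and from 79.7 ± 15.7 to 28.2 ± 1.198 in KO cells. Sc5d, a desaturase of the last steps, fell from 205 ± 11.6 to 92.4 ± 2.28 CPM in WT cells and from 199 ± 16.3 to 90.2 ± 5.39 in KO cells. Cyp51, the lanosterol demethylase, fell from 215 ± 16.5 to 116 ± 4.53 CPM in WT cells and from 195 ± 27.98 to 133 ± 15.9 in KO cells.

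Nsdhl, the X-linked decarboxylating dehydrogenase of the same methyl removal, had 67.9, 78.8, 75.6 and 73.1 CPM in DMEM and 50.1, 46.6, 46.2 and 48.8 in DIAM in the WT libraries. Values in KO cells were 65.3, 58.2, 69.7 and 69.2 CPM in DMEM and 57.4, 56.7, 50.2 and 53.6 in DIAM. It fell by 0.62 on the log2 scale in WT cells (edgeR adjusted p = 5.88e-07) and by 0.27 in KO cells (adjusted p = 0.00192). Ebp, the sterol isomerase, fell from 42.5 ± 1.41 to 34.4 ± 4.86 CPM in WT cells and from 38.9 ± 2.01 to 32.6 ± 3.19 in KO cells; in KO cells the call (edgeR adjusted p = 0.0183) was lost without KO DMEM library 4 (adjusted p = 0.0512) or KO DIAM library 3 (adjusted p = 0.0671). Dhcr7, which makes cholesterol from its last precursor in one arm of the pathway, had 29.1, 38.3, 30.6 and 33.1 CPM in DMEM and 30.2, 28.1, 32.6 and 31.4 in DIAM in the WT libraries. Those ranges overlapped (log2 fold change -0.10, 95% interval -0.35 to 0.15). In the KO libraries Dhcr7 had 23.7, 27.3, 31.5 and 33.5 CPM in DMEM and 41.98, 39.5, 30.98 and 40.9 in DIAM and was called higher in DIAM at 0.40 (edgeR adjusted p = 0.00682).

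**Figure D2:**
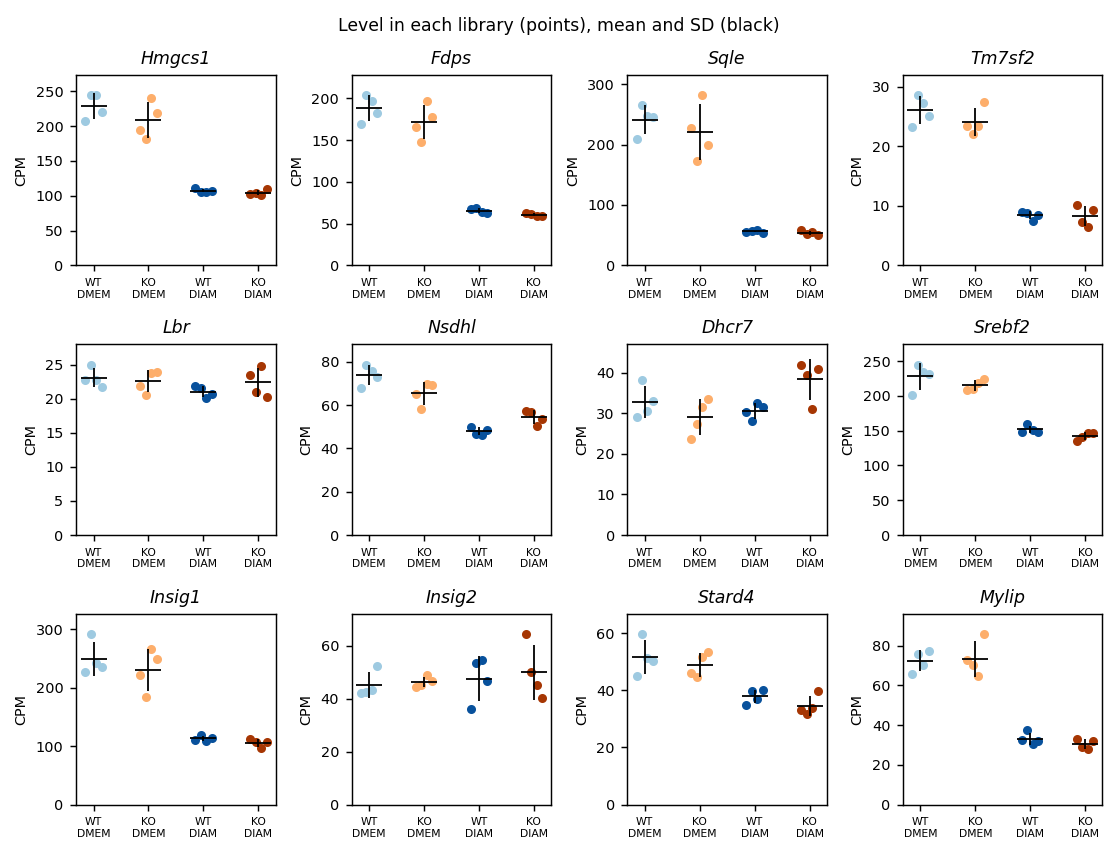
CPM of 12 of the genes in each of the 16 libraries, by group, with the group mean and SD; each panel has its own axis. Sqle, Fdps and Insig1 stand apart between media in both genotypes, while Insig2 and Lbr overlap.

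Of the 4 control genes, 3 fell in each genotype, and Insig2 did not pass the test in either. Srebf2, the factor itself, had 201, 245, 235 and 231 CPM in DMEM and 149, 159, 151 and 148 in DIAM in the WT libraries. The KO libraries had 208, 210.0, 219 and 224 CPM in DMEM and 135, 141, 147 and 146 in DIAM. It fell 1.503-fold in WT cells and 1.51-fold in KO cells (edgeR adjusted p = 2.15e-07 and 1.46e-07), without overlap between media; the transcript says nothing of the cut, active protein. Scap, its escort, fell from 115 ± 9.72 to 84.7 ± 4.43 CPM in WT cells and from 110.2 ± 5.43 to 79.4 ± 2.93 in KO cells.

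Insig1, an INSIG gene known as an SREBP2 target and so a readout of the pathway as well as its brake, had 226, 292, 242 and 235 CPM in DMEM and 111, 119.5, 109 and 114 in DIAM in the WT libraries. KO cells gave 222, 183, 266 and 249.6 CPM in DMEM and 113, 107, 97.2 and 106 in DIAM. The fall was 2.19-fold in WT cells (log2 fold change -1.13 ± 0.10, edgeR adjusted p = 9.43e-08) and 2.18-fold in KO cells (adjusted p = 8.73e-08). Insig2, which is not known for that strong response to sterols, had 42.4, 42.7, 43.5 and 52.5 CPM in DMEM and 35.98, 53.4, 54.8 and 46.6 in DIAM in the WT libraries. Its KO values were 44.4, 45.3, 49.1 and 46.7 CPM in DMEM and 64.5, 50.1, 45.2 and 40.4 in DIAM. Its media overlapped, and its log2 fold changes were 0.08 in WT cells (95% interval -0.23 to 0.38) and 0.11 in KO cells (95% interval -0.19 to 0.41).

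Both handling genes were lower in DIAM. Stard4, a soluble carrier that moves sterol between membranes, had 45.2, 59.8, 51.5 and 50.3 CPM in DMEM and 35.02, 39.7, 37.2 and 39.99 in DIAM in the WT libraries and a log2 fold change of -0.45 (edgeR adjusted p = 0.000492). In KO cells it fell by 0.50 (adjusted p = 0.000144), from 48.97 ± 4.23 to 34.6 ± 3.504 CPM. Mylip, the ubiquitin ligase that marks lipoprotein receptors for breakdown and is known as a target of the sterol sensor LXR, had 65.98, 75.9, 70.2 and 77.5 CPM in DMEM and 32.5, 37.5, 30.6 and 31.9 in DIAM in the WT libraries. Values in KO cells were 72.9, 70.05, 64.8 and 85.8 CPM in DMEM and 33.1, 29.1, 27.97 and 31.9 in DIAM. Mylip fell 2.18-fold in WT cells and 2.404-fold in KO cells (edgeR adjusted p = 2.44e-08 and 5.21e-09), with the media apart in both.

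Ratios of 2 genes within a library do not depend on how libraries are scaled, and 3 pairs were compared between media in each genotype: the INSIG genes, the reductases, and the enzymes that draw isoprenoid towards prenylation (Ggps1) or towards squalene (Fdft1). The log2 ratio of Insig2 to Insig1 was -2.42, -2.77, -2.48 and -2.16 in the WT libraries in DMEM and -1.63, -1.16, -0.99 and -1.29 in DIAM. It rose by 1.19 in WT cells and by 1.197 in KO cells. For Lbr to Tm7sf2 the rise was 1.496 in WT cells, from -0.17 ± 0.10 to 1.33 ± 0.07 (SD, n = 4), and 1.54 in KO cells. Ggps1 to Fdft1 rose by 0.92 and 1.01. In all 6 comparisons the 4 DIAM libraries lay above the 4 DMEM libraries, with p = 0.0286 in the two-sided exact permutation test, the smallest that 4 against 4 can give, and 0.0286 after adjustment over the 6 tests. The pairs were picked with the fold changes of their genes known, so these values describe how unequal the changes within a pair were.

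**Figure D3:**
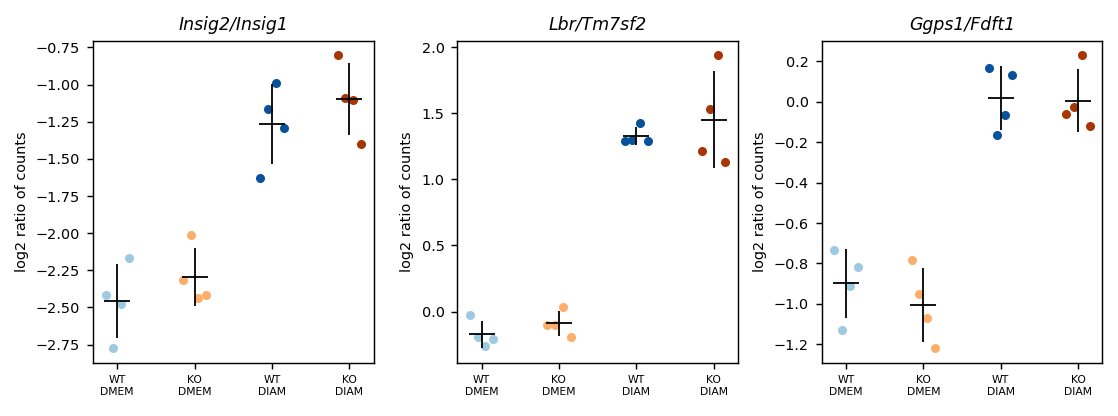
Log2 ratio of 2 genes within each of the 16 libraries for 3 pairs (Insig2 to Insig1, Lbr to Tm7sf2, Ggps1 to Fdft1), by group, with the mean and SD. In each pair and genotype the DIAM points lie above the DMEM points.

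Summed over the 20 enzymes, the level was 2030.0, 2350.4, 2211 and 2102 CPM for WT cells in DMEM (libraries 1 to 4) and 1970.5, 1736, 2262 and 2066 for KO cells. In DIAM it was 1028, 1028, 1021 and 1005 in WT cells and 1064, 1031, 961 and 1027 in KO cells. The group means were 2173 ± 139 and 2009 ± 219 CPM in DMEM (WT and KO, SD, n = 4) and 1021 ± 10.8 and 1021 ± 43.2 in DIAM. The SD in CPM was thus smaller in DIAM, where the mean was lower too. For the mean log2 level of the 20 enzymes, the SD was 0.0908 and 0.135 in DMEM (WT and KO). In DIAM that SD was 0.0113 and 0.0663, so the WT DIAM libraries lay closest to each other. KO DMEM library 2 was the lowest in DMEM: 1 of the 20 enzymes was above the KO DMEM mean there, against 7, 17 and 17 in the other KO libraries, and in WT DMEM library 2 it was 18 of 20. The sum is over genes of unlike length and weight, and follows the abundant ones.

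**Figure D4:**
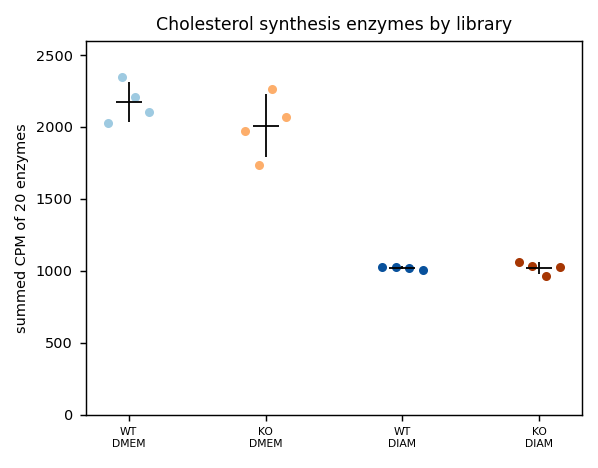
Summed CPM of the 20 enzymes in each library, by group, with the mean (horizontal line) and SD (vertical line); the axis starts at 0. DMEM libraries lie between 1736 and 2350 and DIAM libraries between 961 and 1064.

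Loss of Arg1 from the red cell lineage of the donor mice was asked about in each medium. In DMEM no member was called between KO and WT cells by edgeR, which called 0% of all tested genes at an adjusted p under 0.05 (438 at an unadjusted p under 0.05; DESeq2 called 1 gene and 2 had passed in the authors' deposited table, none of these a member). The log2 fold change was below 0 for 24 of 26 members, all 20 enzymes included, where 54.3% of all tested genes were below 0. No member was without overlap between the genotypes, against 0.823% (lower) and 0.774% (higher) of all tested genes. The median was -0.11 over the members and -0.01 over all tested genes. That median moved to -0.04, with 20 members below 0, without KO DMEM library 2, and to -0.05, again with 20, without WT DMEM library 2. The member of smallest p was Nsdhl at -0.17 ± 0.06 (unadjusted p = 0.0175, adjusted p = 0.9998 in edgeR). For Sqle the 95% interval of the log2 difference ran from -0.37 to 0.11, and for Srebf2 from -0.20 to 0.04.

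In DIAM edgeR again called no member, where it called 8.38% of all tested genes (4.95% lower and 3.43% higher in KO cells). That count of 1191 genes fell to 178 without KO DIAM library 2, 275 without KO DIAM library 1, 299 without WT DIAM library 1 and 316 without WT DIAM library 2. Groups did not overlap for 5 members lower in KO cells, Mvk, Idi1, Fdps, Msmo1 and Srebf2, and for 1 higher, Nsdhl, against 9.05% and 7.38% of all tested genes. Msmo1 differed by -0.25 ± 0.08 (edgeR adjusted p = 0.0796), from 79.9 ± 7.49 CPM in WT to 67.4 ± 2.69 in KO cells. Nsdhl differed by 0.19 ± 0.06 (adjusted p = 0.0839), Dhcr7 by 0.33 ± 0.12 (adjusted p = 0.0881) and Acat2 by 0.23 ± 0.10 (adjusted p = 0.145). Other analyses put Msmo1, Nsdhl or Dhcr7 past the threshold. DESeq2 called Nsdhl (0.19, adjusted p = 0.0473) and Dhcr7 (0.33, adjusted p = 0.0499), among 1873 genes. The authors' deposited table gives Msmo1 at -0.24 (adjusted p = 0.0269), Nsdhl at 0.19 (adjusted p = 0.0389) and Dhcr7 at 0.33 (adjusted p = 0.0256). There 1810 genes passed. In edgeR, Msmo1 was called without KO DMEM library 2 (adjusted p = 0.0421, among 1224 genes). Dhcr7 was called without KO DIAM library 3 (0.42, edgeR adjusted p = 0.0371, among 957 genes).

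**Figure D5:**
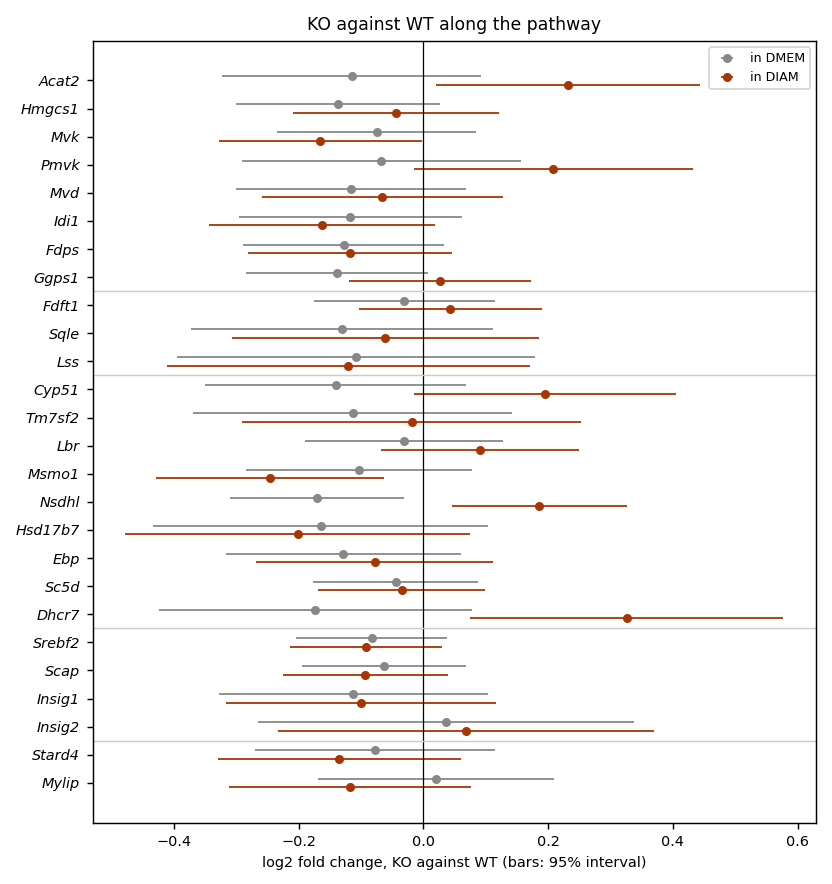
Log2 fold change of KO against WT cells for the 26 genes in pathway order, in DMEM (grey) and DIAM (red), with bars for the approximate 95% interval. In DMEM 24 points lie left of 0; in DIAM 17 do, where 49.7% of all tested genes did, with Msmo1 at -0.25 and Dhcr7 at 0.33 the farthest out.

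Whether the change with medium differed between the 2 genotypes was tested by the interaction term. EdgeR called no member and 0% of all tested genes (2255 at an unadjusted p under 0.05). Nsdhl had the smallest p, with a change from DMEM to DIAM that was higher in KO cells by 0.36 ± 0.09 (SE; edgeR adjusted p = 0.176). DESeq2 called Nsdhl alone of the members (0.36, adjusted p = 0.0289, among 225 genes), and so did the authors' deposited table (0.37, adjusted p = 0.0317, among 234 genes). Dhcr7 had 0.50 ± 0.16 (edgeR adjusted p = 0.195), so its call as higher in KO and not in WT cells is not shown to be a difference between genotypes. The same holds for Pmvk (0.28 ± 0.15, adjusted p = 0.365). For Sqle, Insig1 and Srebf2 the 95% intervals of the interaction were -0.28 to 0.41, -0.29 to 0.32 and -0.18 to 0.16 on the log2 scale. The interaction and the 2 genotype comparisons use the same libraries and are not independent.

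Genes around the pathway were counted in lists; the median log2 fold change of all tested genes was -0.01 in WT and -0.02 in KO cells. With medium, 27.6% of all tested genes were higher and 27.5% lower in WT cells, and 29.8% and 30.8% in KO cells. Between genotypes in DIAM, 3.43% were higher and 4.95% lower in KO cells, in the model of 4 groups. A fit of only the 2 DIAM groups called 0 genes between genotypes, so no genotype call given below was made in that fit. Of 13 genes that process SREBPs or break down sterol-regulated proteins, 2 were higher and 4 lower (median log2 fold change -0.07) in DIAM in WT cells and 4 were higher and 4 lower (median log2 fold change -0.11) in KO cells. Mbtps1, the protease that makes the first cut in SREBP2, fell from 217 ± 14.7 to 179 ± 7.21 CPM in WT cells, while Rnf139, a ubiquitin ligase of the endoplasmic reticulum, rose from 42.3 ± 0.995 to 59.03 ± 3.22. Of 9 electron donors and accessory proteins of sterol synthesis, 3 were higher and 4 lower (median log2 fold change -0.10) in WT cells and 3 were higher and 3 lower (median log2 fold change 0.06) in KO cells: Erg28, a scaffold of the methyl-removing enzymes, fell from 48.3 ± 3.48 to 19.8 ± 3.4 CPM, and Cyb5a, a cytochrome that also serves fatty acid desaturation, rose from 123 ± 0.517 to 288 ± 19.5. Por, the reductase that passes electrons to Cyp51 and Sqle, and Cyb5a were higher in KO than in WT cells in DIAM, with log2 fold changes of 0.36 and 0.23 (edgeR adjusted p = 0.0405 and 0.0362). Of 14 genes that use isoprenoids or make dolichol and ubiquinone, 2 were higher and 2 lower (median log2 fold change 0.03) in WT cells and 4 were higher and 3 lower (median log2 fold change 0.06) in KO cells, and Pdss2 was higher in KO than in WT cells in DIAM.

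Acetyl-CoA supply and fatty acid synthesis, the neighbouring branch, were counted in the same way. Of 7 genes that supply acetyl-CoA or draw on it outside the sterol pathway, 4 were higher and 2 lower (median log2 fold change 0.57) in WT cells and 6 were higher and 1 lower (median log2 fold change 0.74) in KO cells, and 4 of them were higher in KO than in WT cells in DIAM (3.43% of all tested genes), Acly (0.63), Acss2 (0.58), Slc25a1 (0.31) and Cs (0.36). Acss1, a mitochondrial acetyl-CoA synthetase, rose from 1.16 ± 0.371 to 6.13 ± 0.667 CPM in WT cells. Of 14 genes of SREBP1 and fatty acid synthesis, 8 were higher and 6 lower (median log2 fold change 0.47) in WT cells and 8 were higher and 5 lower (median log2 fold change 0.67) in KO cells, and 6 were higher and 1 lower in KO than in WT cells in DIAM. Scd1, the desaturase that makes oleate, rose from 432 ± 28.5 to 5146 ± 1230.0 CPM in WT cells and from 393 ± 50.3 to 8389 ± 1080.0 in KO cells. Adipocyte markers rose in the same libraries, as given at the start, and their part in these counts was not tested.

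Of 11 genes of oxysterols, LXR and cholesterol efflux, 6 were higher and 2 lower (median log2 fold change 0.38) in DIAM in WT cells and 6 were higher and 3 lower (median log2 fold change 0.17) in KO cells. Nr1h3, which encodes the receptor LXR alpha, rose from 6.97 ± 0.552 to 29.3 ± 1.5 CPM in WT cells, and Abcg1, an LXR target that exports cholesterol, from 6.55 ± 0.809 to 28.8 ± 5.2. Of 7 lipoprotein uptake genes, 3 were higher and 2 lower (median log2 fold change -0.02) in WT cells and 4 were higher and 1 lower (median log2 fold change 0.26) in KO cells; Lrp8, a lipoprotein receptor, fell from 18.5 ± 2.35 to 5.18 ± 0.707 CPM and Cd36, the fatty acid and oxidised lipoprotein receptor, rose from 12.8 ± 2.76 to 214 ± 63.2. Of 20 cell cycle genes, 2 were higher and 16 lower (median log2 fold change -0.71) in WT cells and 2 were higher and 18 lower (median log2 fold change -1.05) in KO cells, and 15 were lower in KO than in WT cells in DIAM (4.95% of all tested genes); Ccna2, a cyclin, fell from 13.99 ± 1.37 to 6.78 ± 1.31 CPM in WT cells. Rrm2, 1 of the 2 cell cycle genes that were higher, rose from 28.94 ± 1.81 to 63.57 ± 10.3 CPM in WT cells. In KO cells Rrm2 rose from 25.75 ± 3.2 to 46.38 ± 6.92 CPM. The part of fewer dividing cells in the fall of the sterol enzymes was not tested.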

How the data were processed

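Library columns are TPM per the labels, yet they sum to 37221313 to 47626242 once rounded, a different total each; they were therefore read as deposited estimated counts and rounded to whole numbers; whether the authors scaled them by transcript length is not stated. The submitters' processing notes name Salmon 1.9.0 and FastQC, R 4.4.2 with DESeq2 1.46.0, and build GRCm39. Per the file headers, the authors' adjusted p-values and log2 fold changes cover every comparison here except DIAM against DMEM in KO cells. The authors' mean signal over all libraries was not used. Libraries were prepared with an unstranded kit and rRNA depletion, per the labels; a design text of 4 replicates stands beside a protocol that speaks of triplicates, and 4 libraries per group were analysed.

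Genes with at least 1 CPM in at least 4 libraries were kept (14217 genes, at least 99.83% of each library's counts). The test was edgeR 4.0.16 (R 4.3.3), quasi-likelihood, robust, TMM scaling, 1 model of 4 groups with 12 residual degrees of freedom, Benjamini-Hochberg adjustment, called at an adjusted p under 0.05, two-sided. SEs were back-calculated from the F statistic, and 95% intervals are approximate. Ratios used log2 counts with 0.5 added and exact permutation tests. The code was tested on simulated data. Alternatives were median-ratio scaling, quantile normalization with limma 3.58.1, no filter, a 5 CPM filter, DESeq2 1.42.0, the authors' p-values, 2-group fits, a replicate block, a ratio pseudocount of 5 and leaving out each library. No 2 libraries were identical. All 26 members were to be named, and up to 2 genes from each list; Acat3, Pdss2, Por, Acly, Acss2, Slc25a1, Adipoq, Arg1 and the smooth muscle and fibroblast markers named were added after their values were seen. Members, lists and pairs were chosen with earlier results of these data known. Promoter windows came from RefSeq (GRCm38.p6). Some list genes are not reported here.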

Additional observations from a re-analysis of the deposited data

Results flagged for a closer look

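For each of the 26 genes and the sum of the 20 enzymes, the 4 libraries of each group were checked for 1 that stood far from the other 3, in 108 groups of values. Chance alone flags about 1 in 20 such groups, and 4 were found. Pmvk was at 17.04 CPM in KO DMEM library 2, under 21.6 to 21.9 in the other KO DMEM libraries; the same library had the lowest enzyme sum in DMEM, and the call of Pmvk in KO cells was lost without it. Cyp51 was at 123 CPM in WT DIAM library 3, above 114 to 115. Ebp was at 40.4 CPM in WT DMEM library 2, under 43.0 to 43.3. Insig2 was at 52.5 CPM in WT DMEM library 4, above 42.4 to 43.5.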

How the results depend on the processing

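The 22 members lower in DIAM in WT cells were called in the alternatives that kept all libraries, and quantile normalization with limma added Lbr. Leaving out 1 library gave 21 to 22 changed members in WT cells and 22 to 23 in KO cells, with 1 to 2 higher and 20 to 21 lower in KO cells. Quantile normalization moved the split of all called genes to 3274 higher and 4877 lower in WT cells (3929 and 3910 with TMM) and to 3651 and 5082 in KO cells (4243 and 4380). For KO against WT in DIAM, DESeq2 called 2 members, both higher, 3 passed in the authors' deposited table (1 lower and 2 higher), and fits without 1 library 0 to 1. All-gene counts there were 1873 by DESeq2, 1810 in the authors' table and 0 in a fit of only these 2 groups, beside 1191, and 178 to 1480 without 1 library; the cause was not tested. For the interaction, DESeq2 and the authors' table each called 1 member, higher, among 225 and 234 genes. Same-numbered libraries of the 2 media had correlations of their deviations from the group means of 0.19, -0.14, 0.30 and 0.30 in WT cells and 0.40, 0.01, 0.23 and 0.37 in KO cells, and 2 of 4 pairs in each genotype correlated best with their own number. Not every pair passed 0.1 and the labels tie no library to a mouse, so the numbers were not used as pairs; whether they mark a shared source is not known. With the replicate number as a block, 22 and 23 members changed with medium and 0 with genotype, as without it. Under the replicate block the 6 ratio differences (1.19, 1.197, 1.496, 1.54, 0.916 and 1.01) had p = 0.125 in an exact sign-flip test, the smallest 4 pairs can give. Every member also passed the filter at 5 CPM.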
